A study of Homo sapiens with 90 samples.

Results

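Glucose breakdown was followed here through 31 genes that span the route from glucose uptake to lactate export and into the pentose phosphate branch. They were chosen by name as a pathway set, with earlier results of these data known. Matched by symbol to the gene identifiers of the count table, all 31 were found among 53893 gene rows. The set holds the glucose transporters SLC2A1 and SLC2A3, the hexokinases HK1 and HK2, 7 upper and 6 lower glycolysis enzymes, 4 lactate genes, 3 PFKFB enzymes, 2 pyruvate dehydrogenase kinases and 5 pentose phosphate enzymes.

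The libraries came from 6 human cancer cell lines under 5 treatments, with 3 libraries in each of 30 groups, 90 libraries in all. Each line received 0.1% DMSO for 48 h, a kinase inhibitor aimed at its own driver pathway for 48 h, the covalent CDK7 inhibitor THZ1 for 48 h, both drugs together for 48 h (the combination), or the kinase inhibitor alone for 7 days. A375 melanoma cells received 1 uM vemurafenib (a BRAF inhibitor) and 50 nM THZ1. A549 lung cells received 200 nM GSK1120212 (trametinib, a MEK inhibitor) and 150 nM THZ1. H3122 lung cells received 250 nM crizotinib (an ALK inhibitor) and 50 nM THZ1, and PC9 lung cells received 1 uM erlotinib (an EGFR inhibitor) and 100 nM THZ1. N87 gastric cells received 100 nM lapatinib (an inhibitor of EGFR and ERBB2) and 25 nM THZ1, and RT112 bladder cells received 1 uM BGJ398 (an FGFR inhibitor) and 100 nM THZ1. Each tumour type is therefore represented by 1 to 3 lines and each inhibitor by a single line, so drug, dose and line cannot be told apart. The 7-day cells have no 7-day vehicle, so drug and time cannot be told apart there either.

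Glycolysis splits glucose into pyruvate and yields ATP in the cytosol. Tumour cells commonly run it fast and reduce much of the pyruvate to lactate, which leaves through monocarboxylate carriers. The pentose phosphate branch leaves glycolysis at glucose 6-phosphate, gives NADPH and ribose, and returns sugars to it. MYC and the hypoxia factor HIF1A are known to raise transcription of many of these genes, the latter through sites with the core ACGTG or GCGTG.

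Promoter windows show how far such letters are shared in the set. RefSeq (GRCh38.p14) gave a window of 250 bases before the start for 28 of the 31 genes, taking the first listed window where a gene has several. On either strand ACGTG occurred in 10 of 28 windows (35.7%) against 18.7% of 27305 windows, 1 per gene, of the same length. The counterpart GCGTG occurred in 10 (35.7%) against 31.9%. The E-box CACGTG, which contains ACGTG, occurred in 3 (10.7%) against 6.49%, and the GC box GGGCGG occurred in 21 (75%) against 42.3%. The windows of LDHA and ENO1 are shown because these genes fell most under the targeted drugs, and that of PGLS because it fell when THZ1 was added. They lie at chr11:18394313-18394562 (plus strand), chr1:8878687-8878936 (minus strand) and chr19:17511399-17511648 (plus strand). Capitals mark ACGTG or GCGTG on either strand.
LDHA: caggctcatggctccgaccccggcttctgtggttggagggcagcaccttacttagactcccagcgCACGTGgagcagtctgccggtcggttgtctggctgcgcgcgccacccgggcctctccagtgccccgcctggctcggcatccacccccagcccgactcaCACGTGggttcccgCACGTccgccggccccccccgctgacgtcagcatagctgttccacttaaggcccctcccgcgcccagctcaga
ENO1: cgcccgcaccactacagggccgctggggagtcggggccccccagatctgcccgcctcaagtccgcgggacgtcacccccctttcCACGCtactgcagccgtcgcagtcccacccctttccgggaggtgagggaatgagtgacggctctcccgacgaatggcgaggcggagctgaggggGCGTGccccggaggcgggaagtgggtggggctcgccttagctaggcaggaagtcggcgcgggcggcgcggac
PGLS: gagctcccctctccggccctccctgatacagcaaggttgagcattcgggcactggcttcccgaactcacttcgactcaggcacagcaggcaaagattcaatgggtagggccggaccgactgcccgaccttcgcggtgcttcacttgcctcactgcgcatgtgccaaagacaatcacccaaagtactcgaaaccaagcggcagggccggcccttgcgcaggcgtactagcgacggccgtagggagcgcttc
The LDHA window holds ACGTG at 3 places, 2 of them within CACGTG, the ENO1 window holds GCGTG at 2 places, and the PGLS window holds neither. These are matches of letters and not shown to be bound.

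Library totals ran from 5.64 M to 14.36 M expected counts (M, 1e6), and all 90 libraries were closest to another library of their own group. Summed melanocyte markers were between 681.6 and 1857 CPM (expected counts scaled to a library total of 1e6) in A375, and urothelial markers between 1270 and 2908 in RT112. Most of the A375 sum was SOX10, at 953.2 CPM in DMSO beside MITF at 33.41. PMEL, MLANA, TYR, DCT and TYRP1 were each below 1 CPM there, though DCT was at 213.6 after 48 h of vemurafenib. PMEL was lower in A375 DMSO (0.9997 CPM) than in DMSO of the other lines (1.435 in A549 to 9.138 in PC9). In N87 the gastric markers summed to only 7.4 to 33.4 CPM, below the lung lines A549 (247.6 to 740.7) and H3122 (262.1 to 1290). In A549 and PC9, 1 of 7 lung markers, KRT7, had a mean over the line's libraries of at least 1 CPM. The same held in A375, N87 and RT112, so KRT7 did not set lung lines apart. H3122 also had NKX2-1 (mean 434 CPM) and SFTA3 (40.9). Blood cell markers summed to at most 72.57 CPM in any library, and fibroblast and endothelial markers to at most 486.5, both in RT112. One A375 vemurafenib library at 48 h (replicate 4) carries a lung tissue label, and without it 1 of the 29 calls in A375 at 48 h, ALDOC, was lost. Whether the 3 libraries of a group are separate cultures is not labelled, and the within-line p-values then measure only their spread, which may be technical.

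In DMSO the levels of the 31 genes covered several orders of magnitude. Per kilobase of transcript, GAPDH stood highest in every line, from 1129 CPM per kb in N87 to 3295 in H3122. PKM held 769 to 1193 CPM per kb, ALDOA 436 to 1520 and ENO1 288 to 1473, and their order differed between lines. In N87 SLC2A1 (607 CPM per kb) stood above ALDOA and ENO1, and in A549 PGD (1049) stood above ALDOA. Lengths were those of the longest coding transcript. Several genes were restricted to some of the lines. SLC16A1, a lactate carrier, was at 0.436 CPM in H3122 against 28.5 to 207 CPM in the other lines. SLC2A3, a glucose transporter of high affinity, was at 0.195 CPM in H3122 and 0.173 in RT112, and at 38.2 to 127 elsewhere. A549 had HK2 at 0.409 CPM and ENO2 at 1.36 CPM, below the other 5 lines for both. PGD, the second NADPH-producing enzyme of the pentose branch, was at 1977 CPM in A549, then 454 in PC9, 205 in RT112, 181 in H3122, 162 in A375 and 51.7 in N87.

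Under the targeted drugs the whole set took up less of the library. Its summed share in DMSO and then at 48 h of targeted drug was 1.98% ± 0.0667 and 0.949% ± 0.0222 in RT112 (SD, n = 3, as in all lines). It was 1.26% ± 0.0190 and 0.636% ± 0.00746 in N87, and 2.07% ± 0.0199 and 1.22% ± 0.0144 in A375. H3122 went from 2.08% ± 0.01 to 1.41% ± 0.0358, PC9 from 2.09% ± 0.0772 to 1.55% ± 0.0199, and A549 from 2.498% ± 0.0573 to 1.91% ± 0.0152. Every line was lower. The ratio to DMSO was lowest in RT112 (0.479) and N87 (0.506) and highest in A549 (0.763), and in no line did drug and DMSO libraries overlap. THZ1 alone left the share at 0.929 to 1.13 times DMSO. Shares, CPM and log2 changes are relative to the library, so a change of all RNA alike would not show in any comparison. Since these are bulk libraries, fewer cells with the genes on and less RNA per cell cannot be told apart.

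**Figure D1:**
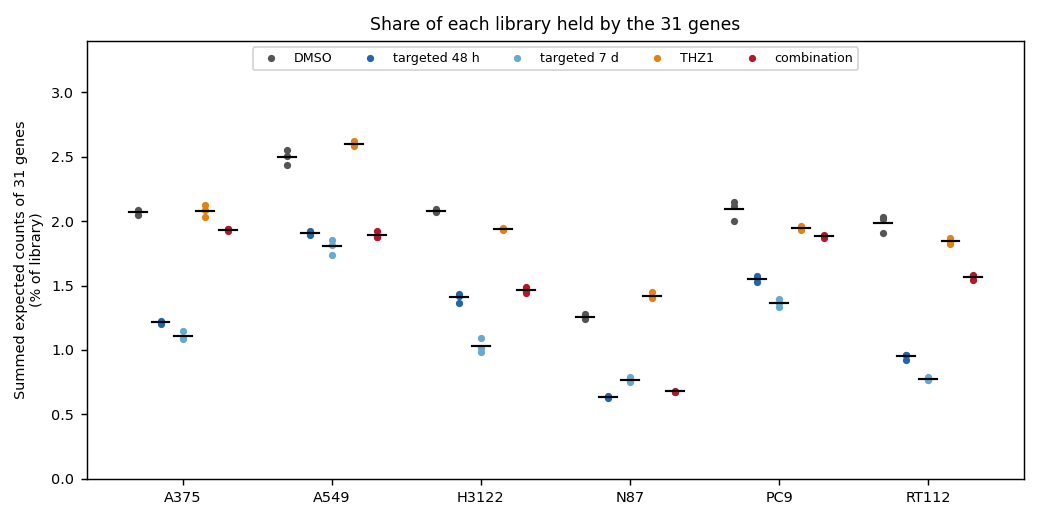
Summed expected counts of the 31 genes as a percentage of each library (vertical axis) by cell line (horizontal axis). Points are libraries, coloured by treatment, and bars are means of 3. Targeted-drug libraries lie below DMSO in all 6 lines, and the combination lies well above the targeted drug in A375, PC9 and RT112.

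The first comparison asks what the targeted drugs did within 48 h, with the 6 lines as replicates. Of the 31 genes, 29 passed the filter on low counts in every line (ALDOC and SLC2A3 did not). Of these, 15 fell and none rose (edgeR quasi-likelihood test, Benjamini-Hochberg adjusted p under 0.05). Among all 11875 genes tested, 37.1% were called (18.5% fell, 18.6% rose). The median log2 change was −0.638 for the 29 genes and 0.049 for all genes. By the test within a line, 10 of the 29 genes (LDHA, ENO1, PKM, GPI, LDHB, PGAM1, TPI1, PDK3, ALDOA and GAPDH) fell in each of the 6 lines, against 8.27% of all genes.

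LDHA, the lactate dehydrogenase subunit that favours lactate formation, fell most. Its 3 DMSO libraries in RT112 held 1060, 1105 and 1068 CPM and the 3 BGJ398 libraries 185, 199 and 203. In A375 the values were 718, 781 and 785 CPM against 221, 233 and 217, and in N87 346, 363 and 346 against 126, 121 and 119. The groups stood far apart in all 3 of these lines. PC9 held 1076, 1057 and 951 CPM in DMSO and 510, 537 and 573 under erlotinib, and H3122 held 736, 715 and 705 against 378, 420 and 365. A549 moved least, from 1747, 1836 and 1747 CPM to 1428, 1378 and 1413, again without overlap. Across lines the log2 change was −1.28 ± 0.300 (SE; adjusted p = 0.00237, edgeR), lower in 6 of 6 lines.

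ENO1, the main enolase of most tissues, fell by 1.13 ± 0.191 on the log2 scale (adjusted p = 0.000231, edgeR), in 6 of 6 lines. Its log2 change was largest in RT112 (−1.65), PC9 (−1.61), N87 (−1.55) and A375 (−1.54), and smaller in A549 (−0.595) and H3122 (−0.342). In PC9 this was 1939, 1996 and 1840 CPM in DMSO against 569, 578 and 575 with erlotinib. PKM, pyruvate kinase, fell by 0.949 ± 0.251 (adjusted p = 0.00540), in 6 of 6 lines, by most in N87 (−1.502) and RT112 (−1.46), then A375 (−1.07), H3122 (−1.03), PC9 (−0.647) and A549 (−0.452). In H3122 its DMSO libraries held 3186, 3286 and 3251 CPM and the crizotinib libraries 1676, 1776 and 1664.

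By role, most falls were in upper and lower glycolysis. In upper glycolysis 5 of 6 tested genes fell: PFKP (log2 −0.846), GPI (−0.838), TPI1 (−0.768), ALDOA (−0.731) and PFKM (−0.433), while PFKL stood at −0.148 (adjusted p = 0.391). In lower glycolysis 5 of 6 fell, the others being PGAM1 (−0.819), GAPDH (−0.709) and PGK1 (−0.477), and the neuronal-type enolase ENO2 stood at −0.771 (adjusted p = 0.204). Of the lactate genes LDHA and LDHB (−0.827) fell, while the carriers SLC16A1 (−0.675) and SLC16A3 (−0.581) did not pass. HK1 fell (−0.483) and HK2 did not pass (−0.579). The 2 pyruvate dehydrogenase kinases of the set fell, PDK1 by 0.762 and PDK3 by 0.734. Such kinases inhibit the pyruvate dehydrogenase complex and so hold back the conversion of pyruvate to acetyl-CoA. SLC2A1 stood at −0.360 (adjusted p = 0.147). None of the 3 PFKFB genes, which set the level of the phosphofructokinase activator fructose 2,6-bisphosphate, was called. None of the 5 pentose phosphate genes was called either, with PGLS at 0.448 (adjusted p = 0.0505) and RPIA at −0.638 (adjusted p = 0.0818). Of the 15 falls 4 were lost when single lines were left out: PFKM without N87 or RT112, PFKP without A375 or RT112, PGK1 without A375, H3122, N87 or RT112, and PDK1 without A375, N87, PC9 or RT112. ALDOC, tested only without the filter, stood at −1.24 (adjusted p = 0.00344).

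**Figure D2:**
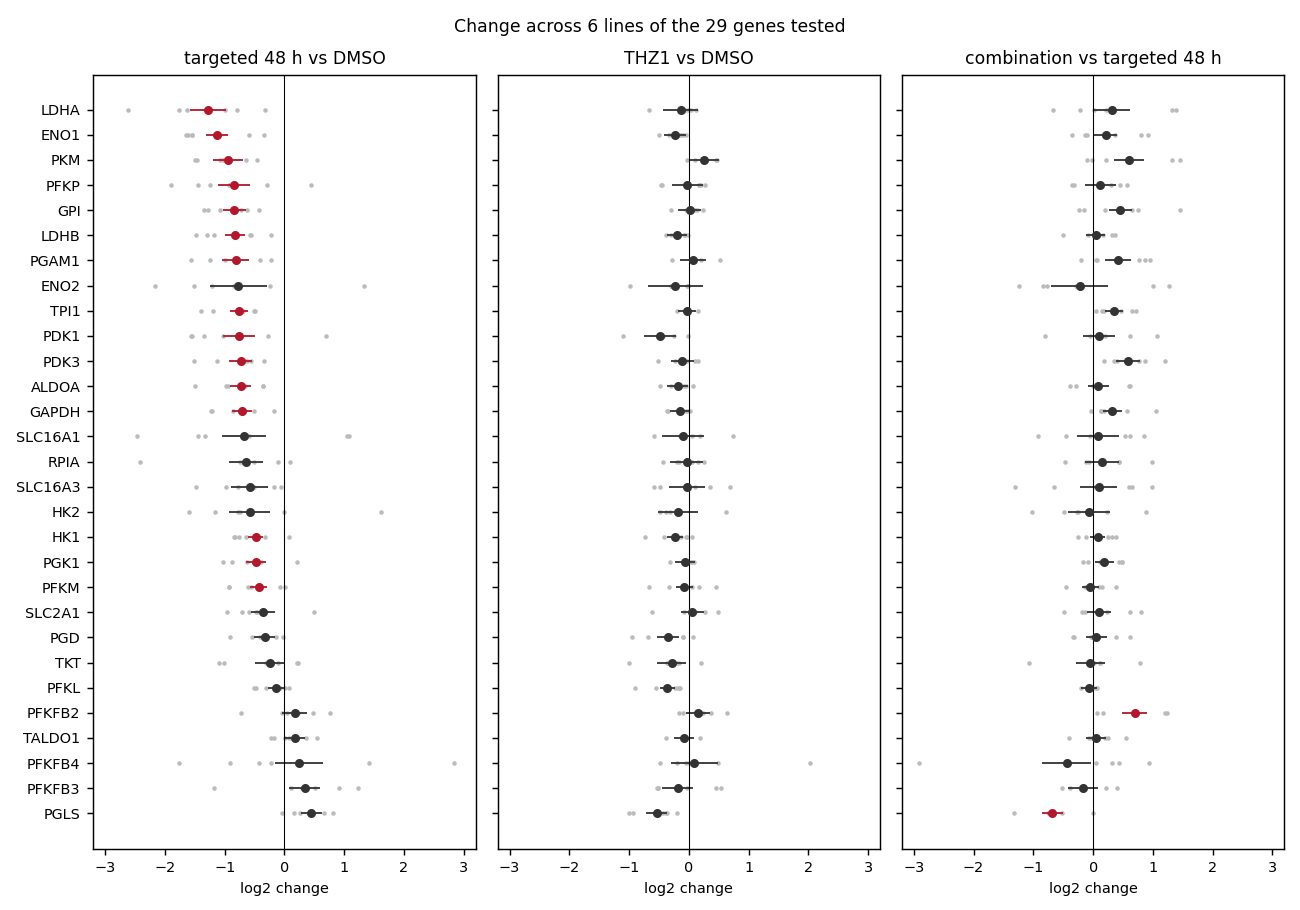
Log2 change across 6 lines (horizontal axis) of the 29 tested genes (vertical axis) in 3 comparisons. Large points with bars are the fitted change and its SE, red where the adjusted p was under 0.05, and small grey points are single lines. The first panel has 15 red points, all left of 0, the second has none, and the third has PFKFB2 to the right and PGLS to the left.

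Genes of the neighbouring pathways were also read. Of 17 tested genes from a list of 28 other glycolysis and pentose phosphate genes, 2 rose and 5 fell (median −0.235), with H6PD (0.857) and ENO3 (0.610) up and PRPS2 (−0.842) and PCK2 (−0.805) the largest falls. Among pyruvate dehydrogenase genes and their regulators, 1 of 11 rose (PDK2, a further kinase of the complex, 0.767) and 3 fell (median −0.243), with DLAT (−0.786) and PDHA1 (−0.366) the largest. The kinase PDK4, not tested across lines, did not move in 1 direction. It went from 0.670 to 5.54 CPM in N87, but from 20.8 to 5.95 in A375 and 10.5 to 3.09 in A549. In the other lines it lay below 3 CPM in both groups. In the citric acid cycle none of 16 rose and 6 fell (median −0.265), led by IDH3A (−0.796) and FH (−0.670). Of 14 hypoxia targets outside glycolysis, 2 rose (KDM3A, 0.750, and BNIP3L, 0.60) and none fell (median 0.177). CA9, left out across lines by the filter on low counts, fell within each of the 3 lines in which it was tested (edgeR), from 21.8 to 0.520 CPM in RT112, from 5.75 to 1.43 in A549 and from 2.25 to 0 in A375. ANGPTL4, also left out, did not move in 1 direction. It went from 28.4 to 74.9 CPM in A549 and 2.38 to 3.75 in N87, but from 2.83 to 1.32 in A375. In the other lines it lay between 0.208 and 1.44 CPM. Of 10 regulators tested, MLXIP (0.780) and ARNT (0.614) rose while MYC (−0.935, adjusted p = 0.0160) and HIF1A (−0.634, adjusted p = 0.0171) fell (median −0.0700). MYC moved from 111 to 33.2 CPM in A375 and from 853 to 280 in RT112, but was at 212 and 228 in H3122. Beside these, 12 of 12 proliferation genes fell (median −2.04) and 9 of 10 genes of MAPK output fell (median −1.78). H3122 differed for proliferation: within that line 4 of the 12 genes rose and 3 fell (median 0.031), and MKI67, a marker of cycling cells, rose from 557 to 824.5 CPM (log2 0.467, adjusted p = 9.14e-05 by edgeR), while 20 of its glycolysis genes fell. The part of these lists in the fall of the glycolysis genes was not tested.

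The lines did not change alike: an equal change in all 6 lines was rejected for 29 of 29 genes in this comparison, as for 93.7% of all genes. The p-values of this test too measure spread between libraries, which may be technical. Within single lines, 2 genes rose and 27 fell in A375 (34.3% and 32.9% of all genes), 11 and 18 of 30 in A549 (36.8% and 37.4%), and 1 and 20 in H3122 (22% and 24.1%). In N87 3 rose and 25 fell (35.5% and 35.4%), in PC9 6 and 20 (35.2% and 32.8%), and in RT112 2 and 25 of 30 (34.2% and 35.1%).

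**Figure D3:**
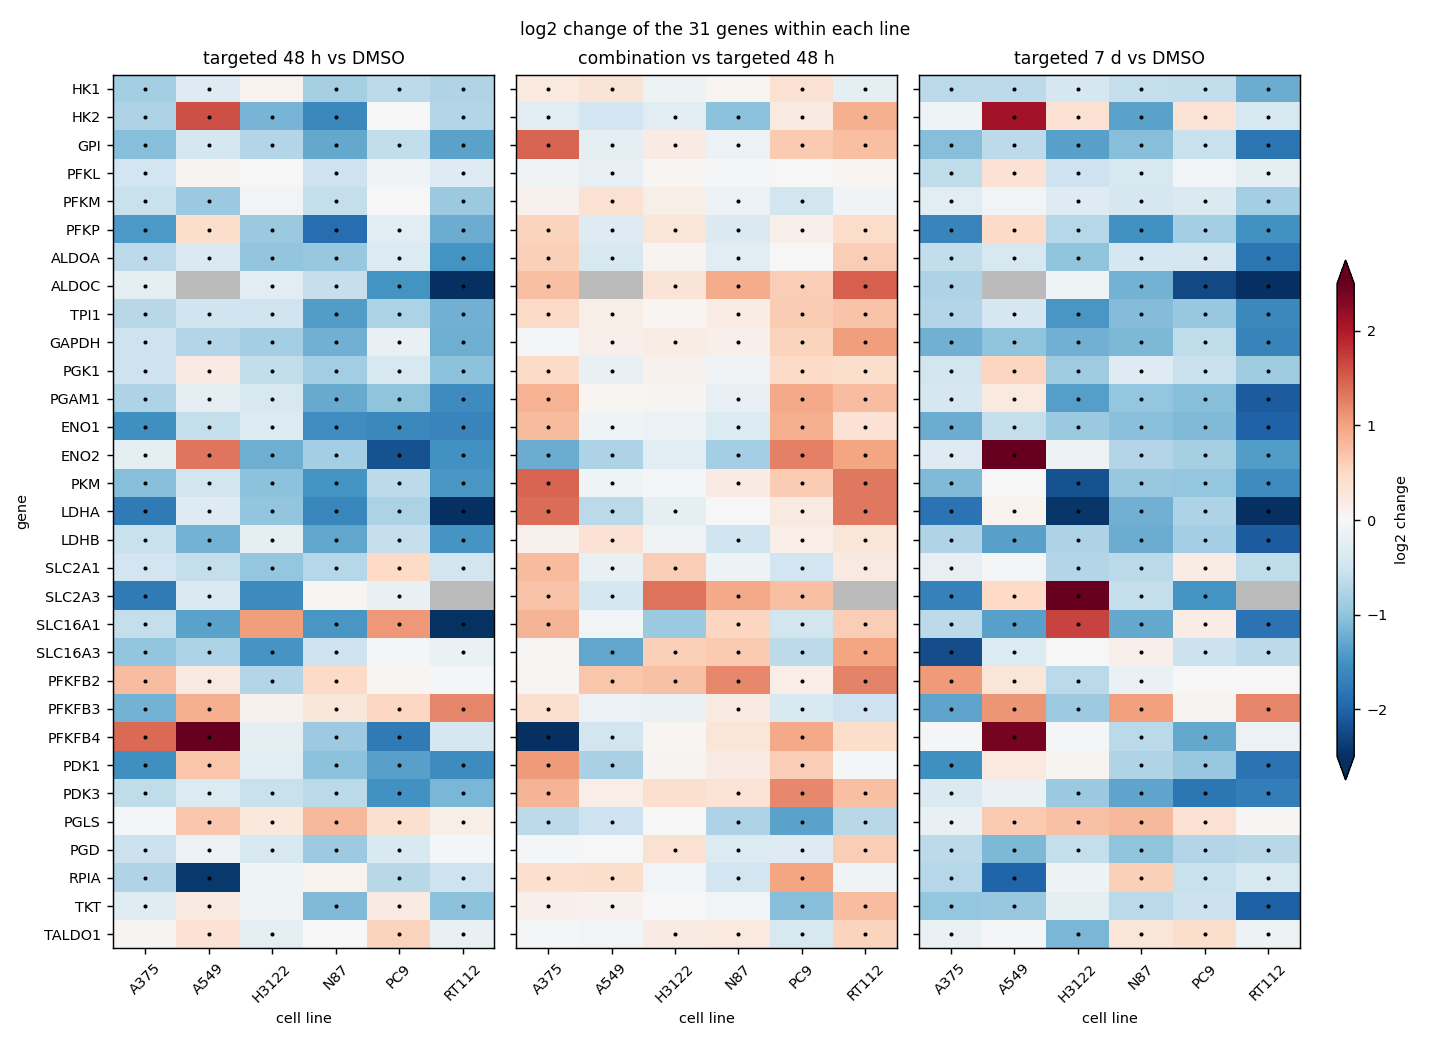
Log2 change (colour, cut at −2.5 and 2.5) of the 31 genes (vertical axis) in each line (horizontal axis) for 3 comparisons. Dots mark adjusted p under 0.05 within the line and grey cells were not tested. Blue dominates the targeted-drug panels, A549 is higher at HK2, ENO2, PFKP, PGK1 and PFKFB4 at 48 h, and the combination panel is red mainly in A375, PC9 and RT112.

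The largest changes in each line named different enzymes. In A375 PFKFB4 rose from 88.3, 89.9 and 88.2 CPM to 230, 242 and 236 (log2 1.41), and PFKFB2 rose from 21.1 to 36.2 CPM. There SLC2A3 fell from 68.0 to 20.5 CPM beside LDHA. In A549 PFKFB4 rose from 1.78, 2.31 and 2.80 CPM to 15.7, 15.3 and 17.5 (log2 2.83), while PFKFB3 rose from 190.5 to 352 CPM. RPIA, which makes ribose 5-phosphate, fell in A549 from 33.9, 35.5 and 30.7 CPM to 6.32, 6.46 and 5.67 (log2 −2.41), and SLC16A1 fell from 115 to 45.1 CPM. No A549 drug library overlapped DMSO for PFKFB4 or RPIA. In H3122 PGLS rose from 37.0 to 47.4 CPM, SLC16A3 fell from 670.0 to 258 and ENO2 from 18.0 to 8.29.

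In N87 PGLS rose from 30.5 to 57.3 CPM and PFKFB2 from 40.3 to 60.1, while PFKP fell from 219.8 to 63.0 (log2 −1.90). In PC9 SLC16A1 rose from 212, 209 and 202 CPM to 372, 410 and 421 (log2 1.08), and TALDO1 rose from 287 to 383. PC9 was also where ENO2 fell from 28.7 to 5.80 CPM and PFKFB4 from 11.8 to 3.17. In RT112 PFKFB3 rose from 77.3 to 202 CPM and PGLS from 51.7 to 64.2, and ALDOC fell from 25.2 to 4.40. SLC16A1, chosen here after its values were seen, fell in RT112 from 28.5 to 5.77 CPM (log2 −2.47), opposite to PC9.

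**Figure D4:**
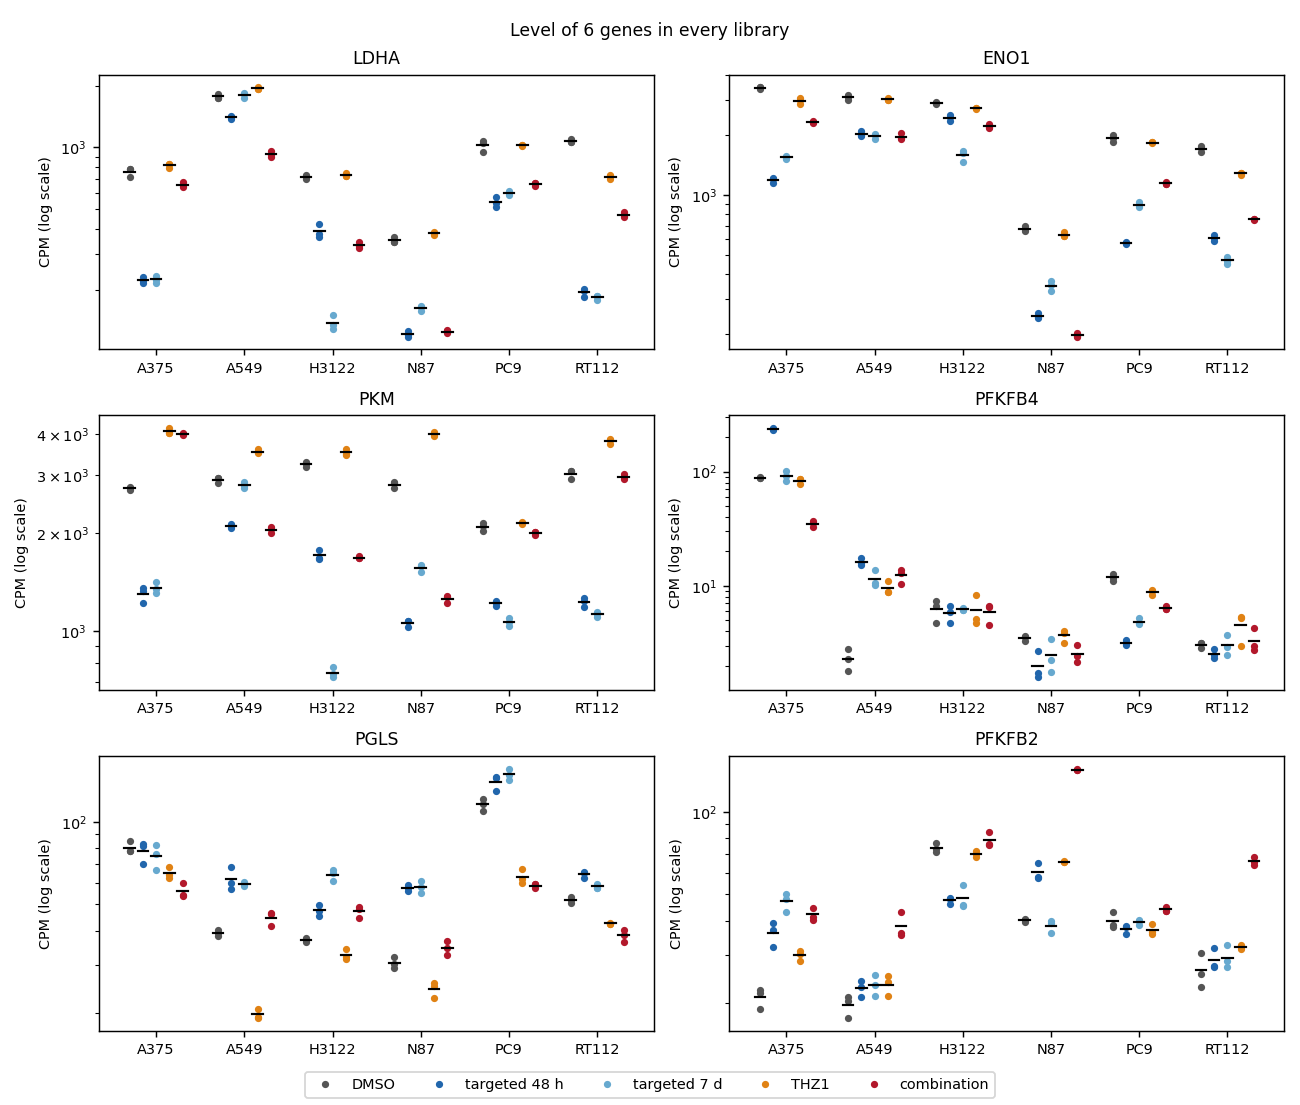
CPM on a log scale (vertical axis) of 6 genes in every library, by line (horizontal axis) and treatment (colour), with bars at the mean of 3. At 48 h LDHA, ENO1 and PKM lie lower under the targeted drug than in DMSO in all 6 lines. PFKFB4 at 48 h is higher in A375 and A549 and lower in PC9. PGLS is lower with both drugs than with the targeted drug at 48 h in 5 lines. At 7 days LDHA in A549 is not below DMSO.

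THZ1 alone was compared with the same DMSO libraries. None of the 29 genes was called across lines (edgeR), where 0.0842% of all genes were called (0.0589% rose, 0.0253% fell). At an unadjusted p under 0.05 there were 2, PGLS (log2 −0.537) and PFKL (−0.357), among 1356 of all 11875 genes tested. DESeq2 called none of the 29 and 194 genes in all. The median log2 change was −0.113 for the set and −0.0100 for all genes. Of the 29 genes 6, PGLS, PDK1, PFKL, ENO1, ENO2 and LDHB, were lower in all 6 lines, as were 8.55% of all genes. PKM was at 0.251 (adjusted p = 0.803), with 3999, 4082 and 3967 CPM in N87 under THZ1 against 2733, 2832 and 2851 in DMSO. MYC was at −0.743 (adjusted p = 0.300) and HIF1A at −0.0330 (adjusted p = 0.983).

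An equal change in all lines was rejected for all 29 genes, as for 83.9% of all genes. In A375 5 genes rose and 19 fell (26.5% and 28.9% of all genes), with PKM (log2 0.464) and PFKFB2 (0.379) up and ENO2 (−0.989) and PFKL (−0.897) down. In A549 11 rose and 8 fell (25% and 21.5%), led by PFKFB4 at 9.50 CPM against 2.30 (log2 2.03) and PFKFB3 (0.535), and by falls of PGLS (−1.002) and SLC2A1 (−0.615). H3122 had 1 rise, SLC2A1 (0.494), and 5 falls (10.8% and 12.3%), led by PFKFB3 (−0.524) and HK2 (−0.379), and 11 calls in place of 6 without its 7-day replicate 1. N87 had 5 and 7 (14.1% and 16.3%), with PFKFB2 (0.637) and PKM (0.448) up and HK2 (−0.488) and PGLS (−0.379) down. In PC9 6 rose and 13 fell (26.1% and 27.7%), including HK2 (0.629), RPIA (0.258), ALDOC (−1.18) and TKT, the transketolase, from 2186, 2215 and 2100 CPM to 1150, 1102 and 1129 (log2 −1.01). RT112 had 4 and 20 of 30 (21% and 20.4%), with SLC16A3 (0.696) and PFKFB3 (0.461) up and ALDOC (−1.68) and PDK1 (−1.11) down.

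The combination was compared with the targeted drug alone, which asks what adding THZ1 changed. The 48 h targeted libraries serve both this comparison and the first one. Across lines 1 gene rose and 1 fell of 29, where 8.03% of all genes were called (3.7% rose, 4.34% fell). PFKFB2, a bifunctional enzyme of fructose 2,6-bisphosphate, was at log2 0.692 ± 0.206 (adjusted p = 0.0392, edgeR), higher in 6 of 6 lines. PGLS, 6-phosphogluconolactonase of the oxidative pentose branch, was at −0.683 ± 0.178 (adjusted p = 0.0203), lower in 6 of 6. Both calls were lost without N87, without PC9 or without RT112, where the count was 0. The call of PGLS was also lost without A375, and that of PFKFB2 without A549. DESeq2 called these and PDK3 (0.584, adjusted p = 0.0635 in edgeR). The set had a median of 0.093 against 0.004 for all genes.

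PFKFB2 in N87 held 57.5, 58.0 and 64.9 CPM under lapatinib and 144, 142 and 141 with both drugs (log2 1.21), and in RT112 31.9, 27.1 and 27.5 against 65.5, 68.1 and 64.2 (1.24). Its log2 change was 0.734 in H3122, 0.686 in A549, 0.160 in PC9 and 0.057 in A375. The N87 and RT112 groups were well separated, whereas A375 held 39.3, 32.2 and 37.0 CPM against 44.7, 40.4 and 41.5. PGLS in PC9 held 146, 129 and 145 CPM under erlotinib and 59.1, 59.1 and 57.2 with both drugs (log2 −1.33). Its change was −0.763 in N87, −0.692 in RT112, −0.659 in A375, −0.525 in A549 and −0.008 in H3122, where the groups overlapped.

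Within lines the direction of the set differed. In RT112 22 of 30 genes rose and 3 fell (32.8% and 31.4% of all genes), in PC9 20 and 9 (33.4% and 34.9%), and in A375 19 and 4 (35.1% and 33.4%). A549 had 8 rises and 15 falls of 30 (20.3% and 20.6%), N87 had 11 and 12 (27% and 28.8%), and H3122 had 9 and 2 (15.3% and 14.3%; 7 calls in place of 11 without its 48 h targeted replicate 4). Equal change in all lines was rejected for all 29 genes, as for 92.4% of all genes. LDHA, followed here for its fall under the targeted drugs, differed in direction. In A375 it went from 221, 233 and 217 CPM to 652, 642.5 and 674, and in RT112 from 185, 199 and 203 to 465, 485 and 457. In A549 it went the other way, from 1428, 1378 and 1413 to 902, 914 and 957. Against DMSO, the summed share with both drugs was 0.934 in A375, 0.901 in PC9, 0.790 in RT112, 0.757 in A549, 0.703 in H3122 and 0.539 in N87.

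The largest changes per line again differed. PKM (1.46) and GPI (1.45) rose and PFKFB4 (−2.92) and ENO2 (−1.25) fell in A375, where PFKFB4 went from 230, 242 and 236 CPM to 35.5, 32.6 and 36.7. In A549 PFKFB2 (0.686) and RPIA (0.440) rose and SLC16A3 (−1.30) and PDK1 (−0.807) fell. SLC2A1 (0.623) rose beside PFKFB2 in H3122, and HK2 (−0.261) and LDHA (−0.225) fell there. N87 had SLC2A3 up (0.952) and HK2 (−1.02) and ENO2 (−0.845) down. PC9 had ENO2 (1.27) and PDK3 (1.21) up and TKT down (−1.07). RT112 had ALDOC (1.499) and PKM (1.32) up, with PFKFB3 (−0.520) down beside PGLS.

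Of the other lists, 4 of 17 further glycolysis and pentose phosphate genes rose and 1 fell across lines (median −0.004). TIGAR, which lowers fructose 2,6-bisphosphate and favours the pentose branch, rose by 1.14 (from 17.4 to 87.3 CPM in A375 and 10.5 to 29.1 in RT112). ENO3 also rose (0.771), and H6PD fell (−0.788). In the citric acid cycle SDHB rose (0.440) and no gene of 16 fell (median 0.194). The median log2 change was 0.079 for pyruvate dehydrogenase genes, 0.133 for hypoxia targets and −0.055 for regulators. MYC was at −0.513 (adjusted p = 0.283) and HIF1A at 0.360 (adjusted p = 0.278). Proliferation genes had a median of 0.477. Among MAPK output genes CCND1 rose (0.967) and EGR1 fell (−2.05; median 0.335). Their part in the changes within lines was not tested.

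After 7 days of targeted drug, compared with 48 h, the median log2 change of the set across lines was −0.013. None of 29 genes was called (edgeR), and neither was any of the 11875 genes (0%). At unadjusted p under 0.05 there were 3, GAPDH, PGD and TKT, all lower, among 761 genes. DESeq2 called none of the 29 and 25 genes in all. Within the lines levels did differ: an equal change in all lines was rejected for 29 of 29 genes, as for 90.7% of all genes. MYC was at 0.145 (adjusted p = 0.949) and HIF1A at 0.154 (adjusted p = 0.92).

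H3122 had the most calls within a line, 7 rises and 16 falls, but also the largest shares of all genes called (30.5% and 33.4%). PKM there went on from 1676, 1776 and 1664 CPM at 48 h to 777, 739 and 722, and LDHA from 378, 420 and 365 to 151, 129 and 135. HK2 rose from 94.4, 99.8 and 91.7 CPM to 256, 291 and 264, and SLC16A3 rose from 258 to 703. One of the 3 libraries at 7 days stood apart for TKT, at 1004 CPM against 701 and 615. A549 had 11 rises and 8 falls of 30 (27.6% and 23.7%), led by ENO2, from 3.03, 3.32 and 3.75 CPM to 15.4, 17.4 and 14.6, and PFKM (0.862), and by falls of TKT (−1.17) and PGD (−0.985). A375 had 7 and 9 (18.6% and 21.4%), with HK2 (0.668) and PGAM1 (0.369) up and PFKFB4 (−1.44) and SLC16A3 (−1.24) down. N87 had 18 and 4 (22.3% and 20.3%), with PFKFB3 (0.739) and SLC16A3 (0.638) up and PFKFB2 (−0.655) and PDK3 (−0.645) down. PC9 had 5 and 16 (25.7% and 27.2%), with ENO2 (1.35) and ENO1 (0.511) up and SLC2A3 (−1.31) and SLC16A1 (−0.906) down. RT112 had 3 and 17 of 30 (18.5% and 18.5%), with SLC16A1 (0.621) and HK2 (0.338) up and TKT (−1.02) and PGD (−0.678) down.

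Against DMSO at 48 h, the 7-day cells had 1 rise and 15 falls among the 29 genes (43.3% of all genes were called, 22.9% higher and 20.3% lower). LDHA was at −1.32 ± 0.303 (adjusted p = 0.00148, edgeR), lower in 5 of 6 lines. In A549 its 7-day libraries held 1755, 1851 and 1825 CPM beside 1747, 1836 and 1747 in DMSO. LDHB was at −1.10 ± 0.164 (adjusted p = 5.11e-05), lower in 6 of 6 lines, from −2.08 in RT112, −1.36 in A549 and −1.24 in N87 to −0.843 in PC9, −0.770 in H3122 and −0.751 in A375. ENO1 was at −1.08 ± 0.191 (adjusted p = 0.000183), lower in 6 of 6 lines, from −2.02 in RT112 to −0.591 in A549. By the test within a line 8 genes (LDHB, ENO1, GAPDH, GPI, TPI1, PGD, ALDOA and HK1) fell in all 6 lines, against 12.4% of all genes. TKT (−0.768) and PGD (−0.718) fell here, so 2 of the 5 pentose phosphate genes were called lower. PGLS was the rise, at 0.474 (adjusted p = 0.0345), higher in 5 of 6 lines. It went from 30.5 to 57.8 CPM in N87, but from 80.5 to 75.0 in A375. That call was lost when A549, H3122, N87 or PC9 was left out. The fall of PDK1 was lost without A375, N87, PC9 or RT112, and those of PFKP and TKT without RT112.

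In the other lists at 7 days, 2 of 17 further glycolysis and pentose phosphate genes rose (BPGM 1.27, H6PD 0.955) and 6 fell, led by PRPS2 (−0.824) and PGM2 (−0.793; median −0.226). Of the citric acid cycle genes 10 of 16 fell and none rose (median −0.452), led by FH (−0.851) and SDHB (−0.752). Of 11 pyruvate dehydrogenase genes, PDK2 rose (0.581) and 5 fell (median −0.236). Among hypoxia targets 3 rose, ADM (1.07), KDM3A (0.957) and MXI1 (0.930), and none of 14 fell (median 0.527). Among regulators MLXIP rose (0.728) and MYC fell (−0.790, adjusted p = 0.0351), while HIF1A stood at −0.480 (adjusted p = 0.0588). Across lines all 12 proliferation genes and 8 of 10 MAPK output genes fell beside the set (medians −2.42 and −1.39), and their part was not tested. MAPK output did not fall in every line. In H3122 DUSP6 rose from 501.5 to 1213 CPM (log2 1.22) and SPRY4 from 89.8 to 261 (1.48), while DUSP4 went from 442.5 to 408.8.

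For all 29 genes an equal change in the 6 lines was rejected here too, as for 95.6% of all genes. Within lines at 7 days, 1 gene rose and 28 fell in A375 (34.1% and 36.6% of all genes), 12 and 12 of 30 in A549 (36.5% and 38.1%), and 4 and 20 in H3122 (33.3% and 33.8%). N87 had 5 and 26 (33.5% and 37.5%), PC9 5 and 23 (34.6% and 35.8%), and RT112 1 and 26 of 30 (37% and 37%). The largest rises were PFKFB2 in A375 (1.06), ENO2 (3.61) and PFKFB4 (2.38) in A549, PGLS (0.739) and HK2 (0.389) in H3122, PFKFB3 (1.03) and PGLS (0.817) in N87, TALDO1 (0.444) and PGLS (0.374) in PC9, and PFKFB3 (1.22) in RT112. The largest falls were SLC16A3 (−2.22) in A375, RPIA (−1.998) and LDHB (−1.36) in A549, LDHA (−2.43) and PKM (−2.17) in H3122, PFKP (−1.51) and HK2 (−1.33) in N87, ALDOC (−2.26) and PDK3 (−1.81) in PC9, and ALDOC (−3.00) and LDHA (−2.69) in RT112.

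Partner enzymes of one step were set against each other in 7 pairs, as the log2 ratio of their summed CPM in each line. No pair was called across lines after adjustment over the 7 pairs of each of 5 comparisons. The test was a two-sided exact sign-flip permutation test, where 6 lines allow no p below 0.03125. A pair alone at this smallest p has an adjusted p of 0.2188, so the test could not call it. The lack of a call therefore does not show that no pair shifted in a shared direction. At that smallest p stood ALDOC and ALDOA in the combination against the targeted drug (mean change 0.580, higher in 6 of 6 lines), HK2 and HK1 from 48 h to 7 days (0.762, 6 of 6), and ENO2 and ENO1 at 7 days against DMSO (1.197, 6 of 6), each with an adjusted p of 0.2188. In A549 ALDOC was at only 0.274 CPM under trametinib and 0.279 with both drugs. Single lines shifted strongly. The LDHA share of the LDHA and LDHB pair, per kilobase, went from 37.1% to 20.1% in A375 and from 51.7% to 32.7% in RT112 at 48 h, but from 44.7% to 59.6% in A549. It went from 30.1% to 20.1% in H3122, from 41.2% to 35.7% in N87 and from 48.9% to 45.2% in PC9. The log2 ratio of PFKP to PFKL changed by −1.38 in N87, −0.967 in A375, −0.939 in H3122, −0.934 in RT112, −0.211 in PC9 and 0.369 in A549 (mean −0.678, exact p = 0.09375, adjusted p = 0.6562).

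The other pairs were as mixed at 48 h. HK2 to HK1 changed by 0.077, 1.96, −1.24, −0.782, 0.652 and 0.020 in A375, A549, H3122, N87, PC9 and RT112. ENO2 to ENO1 changed by 1.30, 1.94, −0.882, 0.706, −0.562 and 0.137 in that order. ALDOC to ALDOA changed by 0.445, −1.43, 0.718, 0.384, −1.16 and −1.18. The A549 values rest on low levels. There HK2 went from 0.405 to 1.25 CPM, ENO2 from 1.33 to 3.35 and ALDOC from 0.954 to 0.274. In each of these 3 pairs at least 2 lines went each way. SLC2A3 to SLC2A1 changed by −1.30 in A375, 0.242 in A549, 0.733 in N87 and −0.688 in PC9, with SLC2A3 at 0.24 CPM or less in H3122 and RT112. SLC16A3 to SLC16A1 changed by −0.387, 0.541, −2.48, 0.936, −1.13 and 2.29, with SLC16A1 under 2 CPM in H3122.

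**Figure D5:**
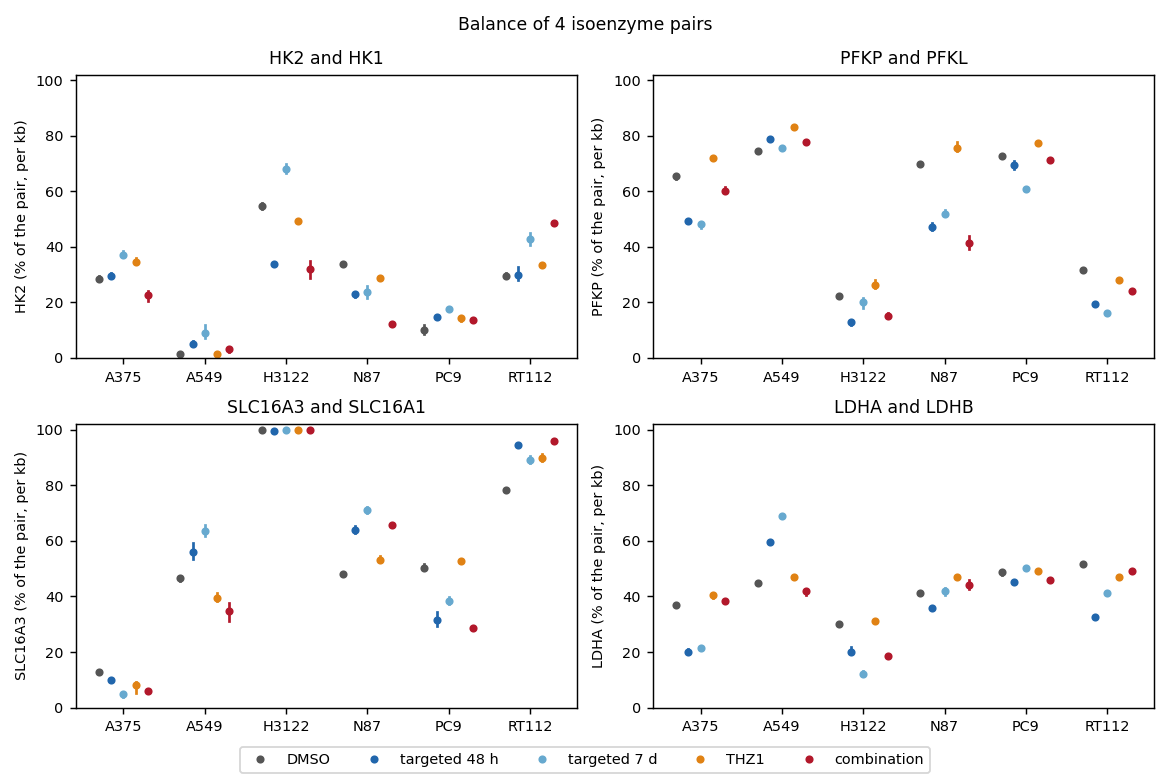
Share of the first gene in each of 4 partner pairs per kilobase of transcript (vertical axis, percent) by line (horizontal axis) and treatment (colour). Points are the summed libraries and bars run from the lowest to the highest library. The LDHA share is lower at 48 h of targeted drug than in DMSO in 5 lines and higher in A549. At 7 days it is above DMSO in A549 and slightly above it in N87 (42% against 41.2%) and PC9 (50.2% against 48.9%).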

How the data were processed

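Expression was measured by RNA sequencing of total RNA (NEBNext Ultra RNA libraries, per the labels' protocols) in 90 libraries. Per the submitters' processing notes the authors used Bowtie2 2.2.1, RSEM 1.2.12 and hg19, and the deposited table holds expected counts per gene. Annotation and strand setting are not given in the sources used here. Of 53893 identifiers, 6782 without a symbol (1.26% of counts) stayed in the table.

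Expected counts were rounded and tested with edgeR 4.0.16 (R 4.3.3; TMM, quasi-likelihood F test, Benjamini-Hochberg over all genes, threshold 0.05). Across lines, the 3 libraries of a group were summed, line was a term, and genes needed 1 CPM in at least 3 libraries of every line. Within lines 14810 to 16106 genes were tested. CPM uses library totals, log2 changes use TMM, and lengths come from GENCODE v29. Tests were tried on simulated data. Alternatives were DESeq2 1.42.0, other scaling, no filter, fewer groups, a replicate block and leaving out libraries or lines.

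The members and lists were chosen with earlier results of these data known. All 31 members are named. Values are given for the 3 largest rises and falls called across lines, the 2 largest called within a line at 5 CPM or more, and the 2 largest called each way in the other lists. GPI, LDHA, PDK1, PFKM and PGK1 had fractional counts in at least 82.22% of libraries, so RSEM split reads they share with other genes. SLC16A1 had them in 67.78%, PGAM1 in 66.67%, SLC2A3 in 50% and PFKFB4 in 43.33%. Named pseudogenes held at most 0.5856% of a member's CPM.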

Additional observations from a re-analysis of the deposited data

Results flagged for a closer look

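Each of the following results had 1 of 6 lines far from the other 5, its gap to the nearest line divided by the whole range being above Dixon's critical value. There were 17 among 180 sets of 6 lines, and chance marks about 1 in 20 such sets. All values are log2 changes.

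At 48 h of targeted drug SLC2A1 was at 0.494 in PC9, against −0.964 to −0.458 in the other lines, and RPIA was at −2.414 in A549, against −0.746 to 0.089. Under THZ1 HK2 was at 0.629 in PC9 (others −0.488 to −0.142), ENO2 at −0.989 in A375 (others −0.302 to −0.014) and LDHA at −0.660 in RT112 (others −0.067 to 0.118). With the combination against the targeted drug, PFKFB4 was at −2.920 in A375 and between −0.452 and 0.940 elsewhere.

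From 48 h to 7 days H3122 stood apart for HK2 (1.549, others 0.276 to 0.668), LDHA (−1.442, others −0.066 to 0.421) and PGLS (0.479, others −0.149 to 0.003). PFKFB2 stood apart in N87 (−0.655, others −0.043 to 0.291). At 7 days against DMSO, A549 stood apart for ENO2 (3.608, others −1.406 to −0.130) and PFKFB4 (2.384, others −1.281 to −0.034). HK1 did so in RT112 (−1.243, others −0.683 to −0.412) and SLC16A3 in A375 (−2.215, others −0.664 to 0.127).

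Among partner ratios, LDHA to LDHB changed by −0.886 in H3122 from 48 h to 7 days, against 0.128 to 0.581 elsewhere. SLC2A3 to SLC2A1 changed there by 5.331, against −0.991 to 0.745, with SLC2A3 under 4 CPM in every H3122 library. ENO2 to ENO1 changed by 4.212 in A549 at 7 days against DMSO, against 0.278 to 0.951. An equal change in all 6 lines was rejected for 29 of 29 members in each of the 5 comparisons, as for 83.9% to 95.6% of all genes.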

How the results depend on the processing

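Under THZ1 the count of members called across lines went from 0 to 1 with only the 2 groups compared. In the combination it went from 2 to 0 without the filter and 0 with only the 2 groups, and lay between 0 and 2 when 1 line was left out. Leaving out 1 library, H3122 gave 5 to 11 calls under THZ1 (6 with all) and 7 to 15 in the combination (11 with all). The cause was not tested. With only the 2 groups, the calls of PFKM, PFKP, PGK1 and PDK1 at 48 h and of ALDOA, PGAM1, PDK1, PFKP and PGLS at 7 days were lost, that of PGLS also without the filter. No scaling moved the median of all genes by more than 0.1, and with library totals TALDO1 changed sign in PC9 (7 days against 48 h) and RT112 (7 days against DMSO).

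No partner ratio was called under any setting (5 lines allow no p below 0.0625), and several turned sign. With a pseudocount of 1 CPM, HK2 to HK1 was at −0.041, SLC2A3 to SLC2A1 at 0.008 and SLC16A3 to SLC16A1 at 0.050 at 48 h. The last was at 0.070 under THZ1, 0.062 from 48 h to 7 days and 0.112 at 7 days against DMSO. Leaving out 1 line, HK2 to HK1 ran from −0.255 to 0.385 at 48 h and −0.025 to 0.163 under THZ1. ENO2 to ENO1 ran from −0.168 to 0.058 under THZ1, and PFKP to PFKL from −0.192 to 0.071 from 48 h to 7 days. SLC2A3 to SLC2A1 ran from −0.165 to 1.099 from 48 h to 7 days and −0.295 to 0.945 at 7 days against DMSO. SLC16A3 to SLC16A1 ran from −0.505 to 0.450 at 48 h, −0.261 to 0.141 under THZ1, −0.355 to 0.200 in the combination, −0.185 to 0.213 from 48 h to 7 days and −0.350 to 0.265 at 7 days against DMSO.

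Libraries were not treated as pairs by replicate number: no comparison with 3 shared numbers had every correlation of deviations over 0.1. RT112 shared only 2 numbers in each comparison. Its correlations were 0.11 and 0.23 for 7 days against 48 h, and 0.08 and 0.28 for 48 h against DMSO, so pairing there is not excluded. With the replicate number as a block, within-line counts stayed within 1.5 times, such as 29 calls in A375 at 48 h and 9 in place of 11 in H3122 with the combination.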
